A study of Mus musculus with 10 samples.

Results

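Glutamate receptors are the proteins through which the excitatory inputs of the nucleus accumbens act on its neurons, and 36 genes for their subunits and auxiliary proteins were taken by symbol: AMPA, NMDA, kainate, delta and metabotropic receptor genes, the TARP, cornichon, Shisa and Gsg1l auxiliary subunits of AMPA receptors, the Neto auxiliary subunits of kainate receptors and the scaffold gene Grip1. Of these, 33 had a row among the 20483 genes of the expression table. Grin2d, Grin3b and Grm2 were not analysed here. Of the 33, 31 reached 1 TPM in at least 5 of the 10 samples and were tested, and Grik1 and Grm8 did not. TPM, the unit of the table, is a level divided by gene length and by the total of the library, so levels of different genes can be set side by side.

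The samples were tissue captured from the lateral shell (5 samples) and the medial shell (5 samples) of the nucleus accumbens, the ventral striatum, of wild-type mice, and the series asks how accumbens subregions differ in the processing of reward. The sources used here give no age, strain, sex or treatment of the mice. RNA was amplified from small captured pieces by Geo-seq, so each library mixes neurons and glia. The labels call the samples biological replicates without saying that each is its own animal, so a p-value here speaks of the spread among samples, some of which may be technical.

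AMPA receptors are tetramers that carry most fast excitatory current, NMDA receptors are glutamate- and glycine-gated channels that admit calcium, and kainate receptors act on both sides of the synapse. Metabotropic glutamate receptors signal through G proteins. TARPs, cornichons, Shisa9 and Gsg1l bind AMPA receptors and change their trafficking and gating, and in the striatum these proteins serve the cortical, thalamic, hippocampal and amygdalar inputs to spiny projection neurons, the main neurons of this tissue.

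Each library listed 15402 to 17003 genes above 0, and mitochondrially encoded genes took 23.5% to 35.3% of its TPM. Lateral replicate 5 and medial replicate 2 stood apart in AY036118, a transcript near 0 there and between 82499.7 and 144263 TPM in the other 8 libraries. Because TPM is scaled to a fixed total, the room this transcript leaves raises the TPM of other genes in those libraries. No alternative rescaled the libraries without this transcript, and shares within a class do not depend on it. Markers of spiny projection neurons were abundant in every library, with a summed level of 3807 to 5962 TPM in lateral and 3971 to 6269 TPM in medial samples. Their most abundant genes were Penk and Ppp1r1b, the latter encoding DARPP-32, and 5 of the 11 were higher in lateral and 6 in medial means, with none passing. Neurod6 and Nr4a2, the genes of cortical excitatory neurons analysed here, summed to at most 3.78 TPM in any library. All 9 microglial genes were higher in lateral means (sums of 348 to 540 TPM against 166 to 373 TPM, C1qa and C1qb most abundant), and C1qa and Tmem119 passed the test, though both lost their call without any 1 of lateral replicates 1 to 5 or medial replicates 2, 4 and 5 and with no mean-variance trend (limma adjusted p up to 0.134 over all alternatives). Both also lost it with a replicate block and without lateral replicate 5 and medial replicate 2 together. Tmem119 also lost it with a pseudocount of 0.1 TPM and with no filter. All 7 oligodendrocyte genes analysed here were higher in lateral means as well (142 to 545 TPM against 52.3 to 258 TPM, with Mbp and Mobp abundant among them), with none passing. GABAergic interneuron genes were higher in lateral means for 6 of 7 tested (486 to 5627 TPM against 28.3 to 1694 TPM, Npy and Sst most abundant), with none passing. All 5 neuroblast genes were higher in medial means (8.36 to 31.7 TPM against 36.5 to 56.5 TPM, Sox11 and Dcx most abundant), and Sox11 passed. The call was lost without lateral replicate 1 or 2, any medial replicate but the first, or lateral replicate 5 and medial replicate 2 together. It was also lost with median-ratio scaling, quantile normalization or no mean-variance trend (limma adjusted p up to 0.0979 over all alternatives). Astrocyte genes, led by Gja1 and S1pr1, were higher in medial means for 5 of 7 tested, with none passing. Their sums were 83.8 to 298 TPM in lateral and 196 to 274 TPM in medial samples. Lateral replicate 1 held the 298 TPM, and the other lateral sums, at most 181 TPM, lay below every medial sum. Cholinergic interneuron genes, led by Ecel1 and Slc5a7, stood at 2.79 to 243 TPM and 1.35 to 220 TPM, again with none passing. Sums for oligodendrocyte precursors, led by Olig1 and Gpr17, had overlapping ranges (22.7 to 60.5 TPM against 37.1 to 100.4 TPM), and so had those for endothelial cells, led by Cldn5 and Ly6c1 (146 to 346 TPM against 164 to 258 TPM). The part that these cells have in the differences below was not tested. In such mixed samples, fewer cells of a type and less RNA per cell cannot be told apart.

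Among the receptor genes, 1 of 31 was higher in the lateral shell and 0 were higher in the medial shell by limma's test across all genes at an adjusted p under 0.05. The gene was Cacng5, a TARP gene. Over the whole table the same threshold called 60 genes higher in lateral (0.385% of 15596) and 171 higher in medial (1.1%). Median-ratio scaling turned those counts into 88 and 82, and quantile normalization into 86 and 100. At an unadjusted p under 0.05 stood 7 of the 31 (22.6%), against 15.4% of all genes. They were Grin2a, Cacng4 and Cacng5 on the lateral side and Gria2, Grik2, Grm7 and Shisa9 on the medial side. Lateral and medial values were fully separate for Cacng5 on the lateral side (as were 0.859% of all genes) and for Gria2 and Shisa9 on the medial side (as were 3.39%). Mean log2 levels were higher in lateral for 16 genes and in medial for 15, with a median difference of 0.02. The median of all genes was -0.21, since 10712 of 15596 genes were higher in medial means. That median moved to -0.02 with median-ratio scaling and to 0.00 with quantile normalization, while the receptor genes' median moved to 0.23 and 0.20.

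**Figure D1:**
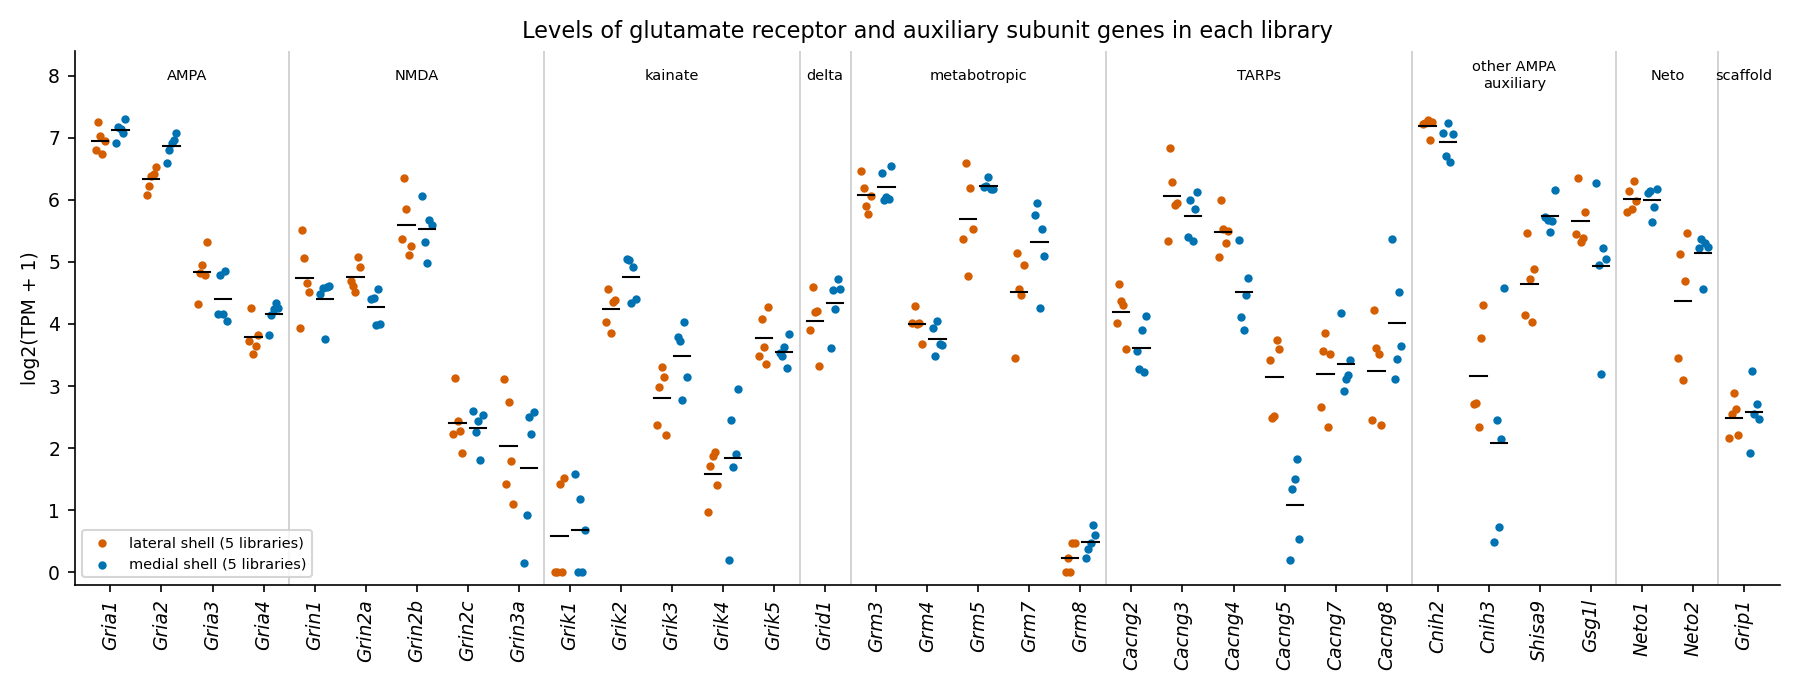
Level of each of the 33 genes in every library on the log2(TPM + 1) scale, grouped by receptor class, with lateral shell libraries in orange, medial shell libraries in blue and a short bar at the mean of the 5 libraries of a group. Cnih2, Gria1 and Gria2 sit at the top, Grik1 and Grm8 at the bottom, and the blue and orange points of Cacng5, Gria2 and Shisa9 are separate.

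**Figure D2:**
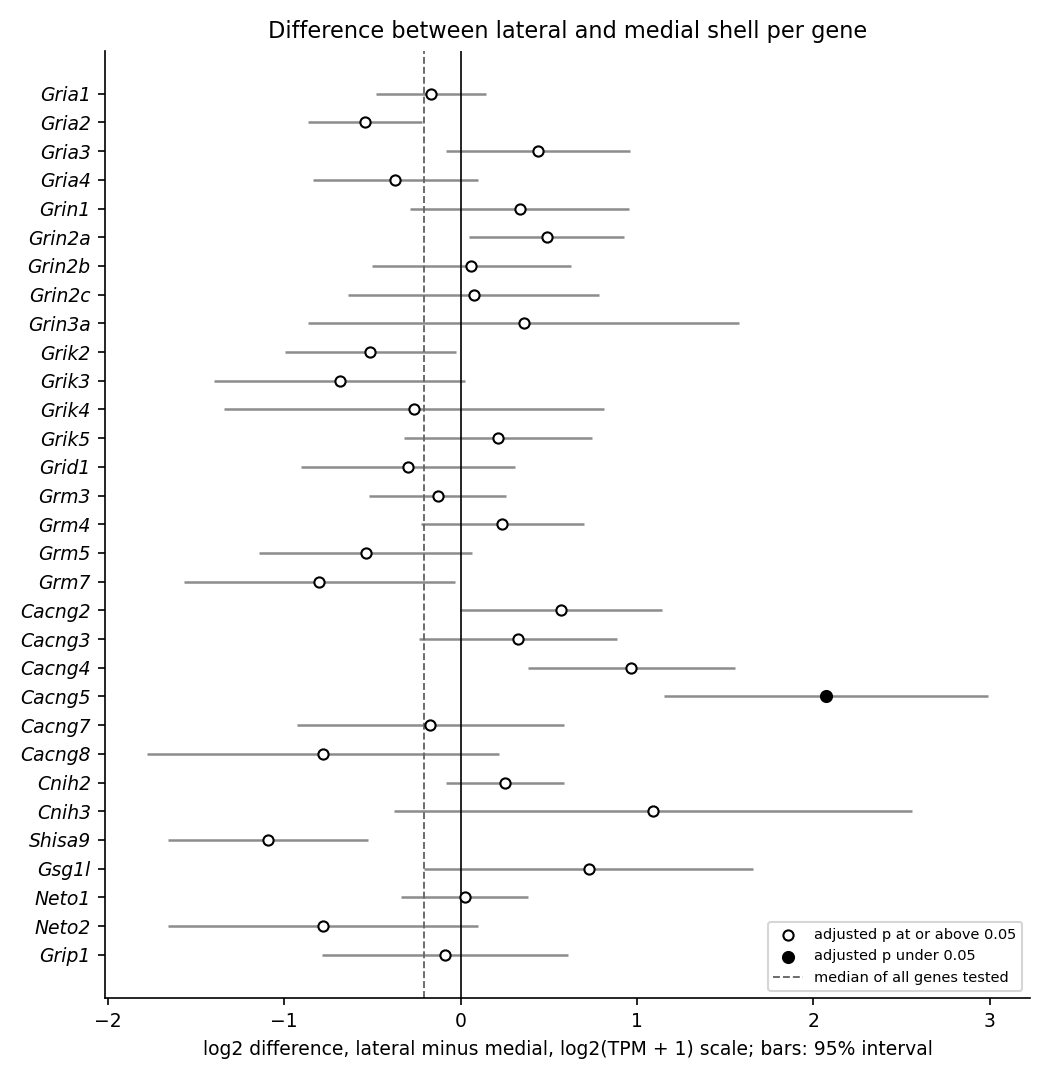
Difference between the regions (lateral minus medial, log2(TPM + 1) scale) for the 31 genes tested, with 95% intervals from limma, the median of all genes tested as a dashed line and a filled point for an adjusted p under 0.05. Cacng5 at 2.07 is the one filled point, and Shisa9 at -1.09 lies farthest on the medial side.

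Of 27 subunit shares examined over all classes, the regions did not overlap for 2, and both belonged to AMPA receptors. Gria2, whose subunit keeps AMPA receptors impermeable to calcium, was lower in all 5 lateral libraries than in any medial library, while Gria3 took a larger share of the AMPA subunit transcripts in all 5 lateral libraries. The channel's pore holds the Q/R site, a glutamine codon in the genome of all of these genes. In Gria2 the transcript is edited at this codon so that arginine is made, and it is this edited subunit that blocks calcium. The coding stretch around the site is shown because the genome holds a glutamine codon there in Gria2 as in the other AMPA genes, so that only the transcript differs. Each stretch comes from the GRCm38 genome with GENCODE M21 and is written 5′ to 3′ on the coding strand, with the Q/R codon in capitals.
Gria1: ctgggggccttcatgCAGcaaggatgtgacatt
Gria2: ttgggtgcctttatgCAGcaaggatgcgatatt
Gria3: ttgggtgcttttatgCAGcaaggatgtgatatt
Gria4: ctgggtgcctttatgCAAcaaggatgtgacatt

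These lie at chr11:57243079-57243111 (plus strand, exon 11 of Gria1), chr3:80706896-80706928 (minus strand, exon 11 of Gria2), chrX:41610250-41610282 (plus strand, exon 11 of Gria3) and chr9:4464122-4464154 (minus strand, exon 12 of Gria4). The marked codon is CAG in Gria1, Gria2 and Gria3 and CAA in Gria4, both of which encode glutamine. Gria2 and Gria3 were identical at 31 of the 33 bases and Gria1 and Gria4 at 30, and the remaining pairs at 28 or 29. A gene's TPM does not tell edited from unedited Gria2 transcripts, so the values below are levels of all Gria2 transcripts together.

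Gria2 stood at 66.8, 73.8, 82.8, 84.7 and 90.8 TPM in lateral replicates 1 to 5 and at 95.5, 111, 119.7, 124 and 133 TPM in medial replicates 1 to 5. The highest lateral library was below the lowest medial one. Means were 79.8 ± 9.48 TPM (SD, n = 5) and 117 ± 14.2 TPM (SD, n = 5), a log2 difference of -0.54 with a standard error of 0.15, short of the threshold (limma adjusted p = 0.101). Over the alternatives the log2 difference ran from -0.61 to -0.33 and kept its direction, with limma adjusted p-values of 0.0652 to 0.308. It was smallest with median-ratio scaling (-0.33, limma adjusted p = 0.308).

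Gria1, the most abundant AMPA subunit gene here, was at 110.0, 151, 129.6, 106 and 122 TPM in lateral and 119.9, 143, 139, 134 and 157 TPM in medial replicates. The groups overlapped (log2 difference -0.17, 95% interval -0.48 to 0.15, limma adjusted p = 0.625), and median-ratio scaling turned the sign (0.042). Gria3 was at 19.1, 27.3, 29.8, 26.5 and 39.0 TPM in lateral and 16.8, 26.7, 16.8, 27.9 and 15.5 TPM in medial replicates, so 3 medial libraries were below every lateral one and 2 were within the lateral range. Its log2 difference was 0.44 (95% interval -0.08 to 0.96, limma adjusted p = 0.411). Gria4 ran from 10.4 to 18.2 TPM in lateral and from 13.2 to 19.3 TPM in medial samples (log2 difference -0.37, limma adjusted p = 0.447). Of the 4 genes, 3 had higher medial means, with a median difference of -0.27, and none passed. They summed to 245 ± 26.2 TPM in lateral and 293 ± 28.9 TPM in medial samples, with overlapping ranges of 208 to 270 TPM and 245 to 323 TPM.

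A subunit's share of the summed TPM of its class does not depend on the scaling between libraries. Shares within a class split the same total, so a lower share of a gene leaves more for the others. Shares of the same class, here and below, are therefore not separate results. Gria2 made up 32.1%, 27.3%, 32.8%, 37.1% and 34.2% of AMPA subunit transcripts in the lateral and 38.9%, 37.4%, 40.8%, 40.5% and 41.2% in the medial replicates. Every lateral share was below every medial share, and the means differed by -7.06 percentage points (32.7% ± 3.58 against 39.8% ± 1.59, SD, n = 5 each). Gria3 made up 9.17%, 10.1%, 11.8%, 11.6% and 14.7% in lateral and 6.86%, 8.99%, 5.72%, 9.15% and 4.79% in medial replicates. All lateral shares were higher, but lateral replicate 1 and medial replicate 4 were nearly equal, and the means differed by 4.38 points. Both had an exact two-sided permutation p of 0.00794, the smallest that 5 against 5 samples allow, and an adjusted p of 0.107 over the 27 subunit shares examined, so neither passed. Over 27 shares, any share can pass only if several others also have p-values near that smallest one. Not passing therefore does not show that a share is alike in the regions, here or for the shares below. Gria1 at 50.5% ± 4.25 against 47.3% ± 1.94 and Gria4 at 5.34% ± 0.994 against 5.8% ± 0.383 (SD, n = 5 each) had overlapping shares.

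**Figure D3:**
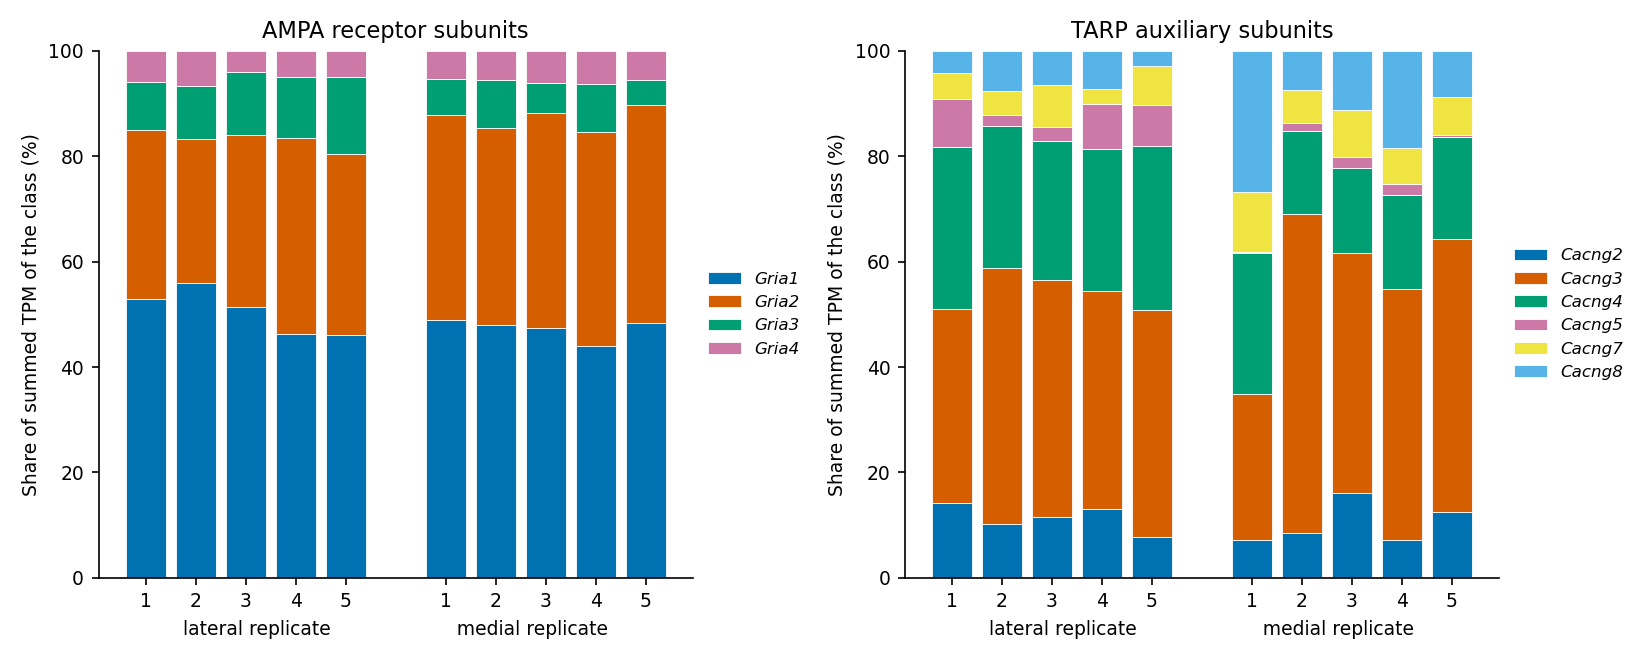
Stacked bars of each gene's share (%) of the summed TPM of the 4 AMPA subunit genes, left, and the 6 TARP genes, right, with 1 bar for each library. The Gria2 segment is 27.3% to 37.1% in lateral and 37.4% to 41.2% in medial libraries, and the Cacng4 segment is 26.4% to 31.2% in lateral and 15.7% to 26.8% in medial libraries.

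TARPs are four-pass membrane proteins that escort AMPA receptors to the synapse and slow their closing. Cacng2 (stargazin), Cacng3, Cacng4 and Cacng8 encode the type I members, whose C-terminal tail binds the PDZ domains of PSD-95, and Cacng5 and Cacng7 encode the type II members, which modulate AMPA receptors differently and lack that canonical tail. Cacng5 was higher in the lateral shell, at 8.48 against 1.3 TPM, and passed the test. Cacng4 was at 44.7 against 23.4 TPM and Cacng8 at 9.59 against 18.2 TPM, and neither passed. The ends of the coding sequences are shown because they mark this division into types, with the last 4 codons before the stop codon in capitals (GRCm38 and GENCODE M21, coding strand).
Cacng2: acagccaaccgccggACCACGCCCGTAtga
Cacng3: ccggccaacagacgtACCACGCCTGTCtga
Cacng4: atgctgaaccggcggACGACTCCCGTGtga
Cacng8: acgctcaacaggaaaACCACGCCCGTGtag
Cacng5: tatgaccagatgtcaTCATCTCCCTGCtga
Cacng7: catctccacatctccACTTCGCCGTGCtga

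In that order they lie at chr15:77995149-77995178 (minus strand), chr7:122768817-122768846 (plus), chr11:107734780-107734809 (minus), chr7:3415576-3415605 (plus), chr11:107877352-107877381 (minus) and chr7:3366919-3366948 (plus), each in the last coding exon. Cacng4 and Cacng5 are neighbours on chromosome 11, on the same strand and 80.0 kb apart with 0 protein-coding genes between them. Cacng7 and Cacng8 are neighbours on chromosome 7, 22.5 kb apart, likewise with 0 protein-coding genes between them.

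Cacng5 was at 9.70, 4.58, 4.75, 12.3 and 11.1 TPM in lateral replicates 1 to 5 and at 0.145, 1.53, 1.83, 2.55 and 0.452 TPM in medial replicates 1 to 5. All lateral libraries were above all medial ones, and within the lateral group replicates 1, 4 and 5 were high and 2 and 3 low. The means of 8.48 ± 3.61 and 1.3 ± 0.995 TPM (SD, n = 5 each) had a ratio of 6.52, and the log2 difference was 2.07 with a standard error of 0.43 (95% interval 1.15 to 2.99, limma adjusted p = 0.0312). The size of this difference depends on the pseudocount, being 2.95 with 0.1 TPM and 1.07 with 5 TPM. Its 5 lateral libraries alone took it past the filter on low values, with 3 medial libraries at 1 TPM or more. Summed oligodendrocyte genes were also highest in lateral replicates 1, 4 and 5, at 545, 542 and 453 TPM, against 204 and 142 TPM in replicates 2 and 3. The medial libraries did not follow that order: replicate 1, with the lowest Cacng5 of all 10, had the highest medial oligodendrocyte sum of 258 TPM, above lateral replicates 2 and 3, and medial replicate 2 had the lowest sum of 52.3 TPM. The part of these cells in the Cacng5 values was not tested.

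The call of Cacng5 was close to the threshold. It did not hold without lateral replicate 1 (adjusted p = 0.0709), 4 (0.0807) or 5 (0.0809) or medial replicate 2 (0.0681), 3 (0.0541) or 5 (0.075), or without lateral replicate 5 and medial replicate 2 together (0.145). It was also lost with a pseudocount of 0.1 TPM (0.0723), with no filter on low values (0.0519) and with a replicate block (0.09). Equal replicate numbers are not known to mark pairs. With a filter of 5 TPM, Cacng5 was not tested. Its log2 difference stayed at 1.85 or more in the fits that left out libraries.

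Cacng4 was at 32.7, 62.8, 45.0, 38.5 and 44.2 TPM in lateral and 39.9, 16.2, 14.0, 21.1 and 25.6 TPM in medial replicates. Medial replicate 1 was the only medial library within the lateral range. The log2 difference was 0.97 (standard error 0.27, 95% interval 0.38 to 1.56, limma adjusted p = 0.108), and without medial replicate 1 it was 1.18 and passed (adjusted p = 0.0307). Gm11650 overlaps Cacng4 on the opposite strand, by whole gene spans with introns included. The sources do not say whether counting used strand, so reads of any shared exon could not be told apart.

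Cacng8 was at 4.46, 17.7, 11.2, 10.5 and 4.17 TPM in lateral and 40.1, 7.65, 9.77, 21.8 and 11.5 TPM in medial replicates. Values varied widely within each region (log2 difference -0.78, 95% interval -1.78 to 0.22, limma adjusted p = 0.45), and without medial replicate 1 the log2 difference was -0.44. Medial replicate 1, the library with the highest Cacng8, also had the lowest Cacng5 and the highest Cacng4 of the medial group. Cacng3, the most abundant TARP gene, ran from 39.2 to 113 TPM in lateral and from 39.5 to 68.4 TPM in medial samples (log2 difference 0.33, limma adjusted p = 0.593). Cacng2 ran from 11.1 to 23.9 TPM and from 8.39 to 16.4 TPM (0.57, limma adjusted p = 0.331), and Cacng7 from 4.09 to 13.4 TPM and from 6.55 to 17.0 TPM (-0.17, limma adjusted p = 0.858). Of the 6 genes, 4 had higher lateral means, with a median difference of 0.45. Their sum was 159 ± 47.1 TPM in lateral and 118 ± 24.4 TPM in medial samples, with overlapping ranges.

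As shares of TARP transcripts, Cacng4 took 28.4% ± 2.33 in lateral and 19.2% ± 4.49 in medial samples (exact permutation p = 0.0159), Cacng5 6.04% ± 3.39 and 1.24% ± 0.971 (exact permutation p = 0.0238) and Cacng8 5.71% ± 2.04 and 14.5% ± 8.1 (exact permutation p = 0.0159; SD, n = 5 for each). Each had an adjusted p of 0.107 over the 27 shares, and the ranges of the regions overlapped for all 3. Cacng2, Cacng3 and Cacng7 had exact permutation p-values of 0.603, 0.548 and 0.0794. Cacng3 ranked first in all 10 libraries. Cacng4 came next in all 5 lateral libraries and in 3 medial ones, Cacng8 came next in medial replicates 1 and 4, and Cacng5 was the least abundant TARP gene in all 5 medial libraries.

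**Figure D4:**
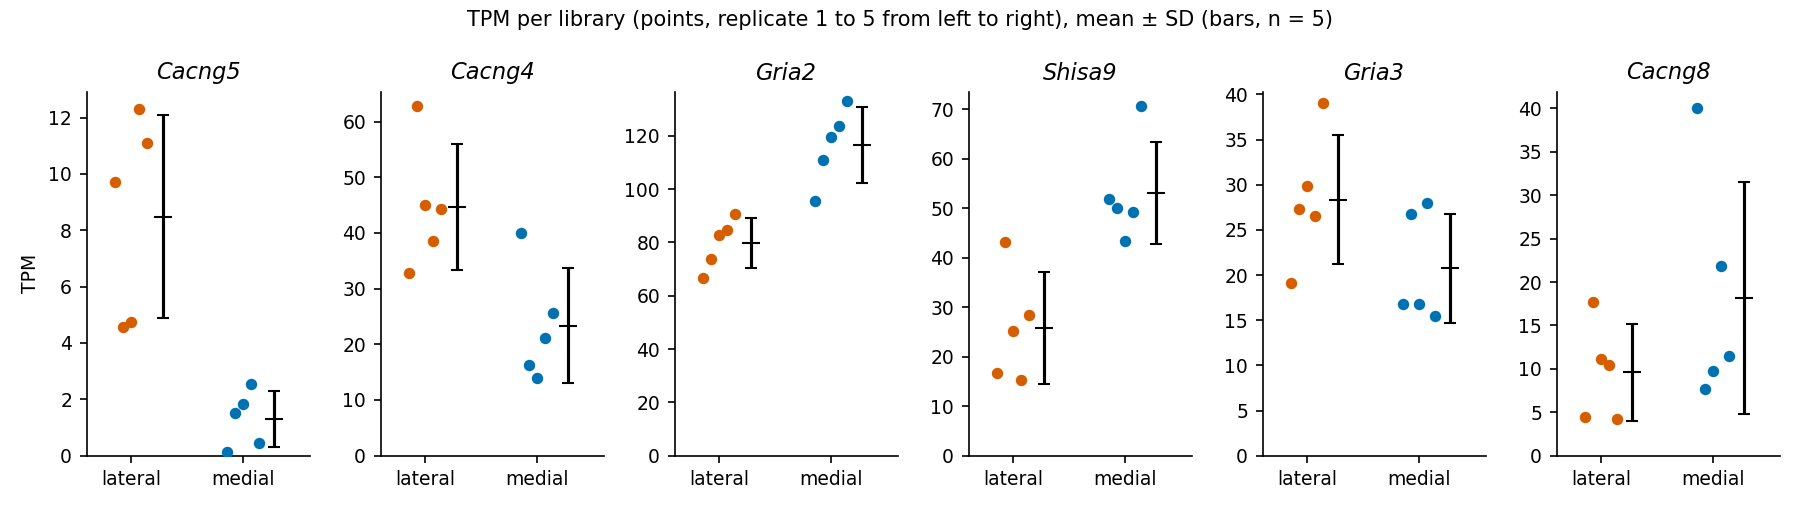
TPM of 6 genes in every library, with replicates 1 to 5 of each region drawn from left to right and the mean ± SD of the 5 libraries beside them. Lateral and medial points are separate for Cacng5, Gria2 and Shisa9, and they overlap for Cacng4, Gria3 and Cacng8.

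Other auxiliary subunits of AMPA receptors included the largest medial difference of the set. Shisa9 (CKAMP44), which promotes the desensitization of AMPA receptors, was at 16.8, 43.3, 25.3, 15.3 and 28.4 TPM in lateral and 51.9, 50.1, 43.4, 49.2 and 70.7 TPM in medial replicates. The groups did not overlap, but lateral replicate 2 nearly reached medial replicate 3. Means were 25.8 ± 11.2 and 53.1 ± 10.3 TPM (SD, n = 5 each), with a log2 difference of -1.09, a standard error of 0.26 and a limma adjusted p of 0.0625, just short of the threshold. Without lateral replicate 2 it passed at -1.29 (adjusted p = 0.0277), and over all alternatives the adjusted p ran from 0.0277 to 0.177.

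Cornichons help AMPA receptors leave the endoplasmic reticulum and slow their deactivation. Cnih2 had the highest mean of the 33 genes over all 10 libraries, though Gria1 had the highest medial mean, and it was at 147, 149, 155, 123 and 151 TPM in lateral and 133, 103, 149, 97.0 and 132 TPM in medial replicates, which overlapped (log2 difference 0.25, 95% interval -0.08 to 0.59, limma adjusted p = 0.465). Yif1a overlaps it on the opposite strand. Cnih3 was at 5.54, 5.63, 4.06, 12.6 and 18.7 TPM in lateral and 0.401, 4.45, 0.654, 3.44 and 22.8 TPM in medial replicates. Medial replicate 5 held the highest value of all 10 and the other medial libraries were low, and the log2 difference of 1.09 had an interval of -0.38 to 2.56 (limma adjusted p = 0.472). Cnih2 made up 94.0% ± 3.82 and 95.4% ± 5.92 (SD, n = 5 each) of the pair's transcripts.

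Gsg1l, an auxiliary subunit that dampens AMPA receptor currents, was at 42.7, 80.4, 39.2, 40.6 and 55 TPM in lateral and 76.0, 29.9, 8.15, 36.4 and 32.0 TPM in medial replicates. All lateral libraries were above 4 of the medial ones, and medial replicate 1 was within their range (log2 difference 0.73, 95% interval -0.21 to 1.66, limma adjusted p = 0.45). Without medial replicate 3, at 8.15 TPM, the log2 difference was 0.29.

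All 5 NMDA receptor genes had higher lateral means, with a median difference of 0.34, and none passed. The signs of Grin2b, Grin2c and Grin3a turned when some single libraries were left out. Grin1 encodes the subunit that every NMDA receptor needs, the GluN2 genes Grin2a, Grin2b and Grin2c encode glutamate-binding partners that set the kinetics, and Grin3a encodes a glycine-binding subunit that lowers calcium entry. Grin2a was at 24.9, 23.3, 21.9, 32.9 and 29.2 TPM in lateral and 20.2, 20.4, 14.8, 22.7 and 15 TPM in medial replicates. Only the lowest lateral and the highest medial library crossed (log2 difference 0.49, 95% interval 0.05 to 0.93, limma adjusted p = 0.272).

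Grin2b, the most abundant NMDA gene, ran from 33.5 to 80.7 TPM in lateral and from 30.5 to 66.1 TPM in medial samples. Its log2 difference of 0.06 (95% interval -0.50 to 0.63, limma adjusted p = 0.936) changed sign without some single libraries. Grin1 was at 27.5 ± 11.6 and 20.6 ± 4.61 TPM (SD, n = 5 each; log2 difference 0.34, limma adjusted p = 0.623), with its highest value of 44.7 TPM in lateral replicate 2 and its lowest of 12.5 TPM in medial replicate 3. Grin2c stayed between 2.49 and 7.74 TPM in all 10 libraries (0.07, limma adjusted p = 0.938). Grin3a ran from 1.14 to 7.66 TPM in lateral and from 0.111 to 4.98 TPM in medial samples (0.36, limma adjusted p = 0.808). Within the GluN2 genes, Grin2a made up 34.4% ± 10.8 in lateral and 27.3% ± 4.75 in medial samples and Grin2b 60.1% ± 10.1 and 66.5% ± 4.96 (SD, n = 5 each), which overlapped (exact permutation p = 0.222 and 0.23). Grin2b was higher than Grin2a in all 10 libraries.

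Of the 4 kainate receptor genes tested, 3 had higher medial means and Grik5 a higher lateral mean (median -0.39), and none passed. Grik2 (GluK2), a subunit that can form channels alone, was at 15.4, 22.6, 13.4, 19.5 and 19.9 TPM in lateral and 32.2, 31.6, 19.2, 29.4 and 20.1 TPM in medial replicates, with 3 medial libraries above all lateral ones (log2 difference -0.51, 95% interval -1.0 to -0.03, limma adjusted p = 0.3). Grik3, which can also form channels alone, was at 6.29 ± 2.29 and 10.8 ± 3.89 TPM (SD, n = 5 each; -0.69, limma adjusted p = 0.346). Grik5, which encodes a high-affinity subunit that needs a partner, was at 13.0 ± 3.93 and 10.8 ± 1.65 TPM (0.21, limma adjusted p = 0.722), and Grik4, of the same kind, at 2.08 ± 0.767 and 3.28 ± 2.49 TPM (-0.26, limma adjusted p = 0.844). The sign of Grik4 turned under quantile normalization (0.060). Grik1 was listed at 0 in 3 lateral and 2 medial libraries, reached at most 1.99 TPM and was not tested. Grik5 held 33.2%, 33.3%, 29.9%, 23.5% and 40.5% of kainate subunit transcripts in lateral and 18.3%, 17.4%, 28.5%, 15.6% and 27.3% in medial replicates, where only lateral replicate 4 fell within the medial range. The difference of 10.7 points had an exact permutation p of 0.0317 and an adjusted p of 0.122 over the 27 shares.

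Neto1 and Neto2 encode auxiliary subunits that slow the gating of kainate receptors. Neto1 was among the steadiest genes of the set, at 64.2 ± 9.36 and 63.2 ± 9.56 TPM (SD, n = 5 each), with a log2 difference of 0.02 (95% interval -0.33 to 0.38, limma adjusted p = 0.962). Neto2 was at 9.88, 34.0, 7.54, 24.8 and 43.1 TPM in lateral and 36.4, 40.5, 22.7, 38.4 and 36.9 TPM in medial replicates. Lateral replicates 1 and 3 were low and the other lateral libraries were within or above the medial range (log2 difference -0.78, 95% interval -1.66 to 0.10, limma adjusted p = 0.387).

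Grid1 encodes GluD1, a delta receptor that links synaptic membranes through cerebellins and neurexins. It ran from 9.02 to 23.0 TPM in lateral and from 11.2 to 25.4 TPM in medial samples (log2 difference -0.30, 95% interval -0.90 to 0.31, limma adjusted p = 0.662).

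Of the 4 metabotropic receptor genes tested, Grm4 alone had a higher lateral mean (median of the 4, -0.33), and none passed. Grm5, a Gq-coupled postsynaptic receptor of spiny projection neurons, was at 40.3, 95.7, 26.2, 72 and 45.3 TPM in lateral and 72.7, 73.5, 81.3, 71.2 and 71.3 TPM in medial replicates. The medial libraries lay close together and the lateral ones were spread on both sides of them, so the log2 difference of -0.54 (95% interval -1.14 to 0.07, limma adjusted p = 0.386) did not pass. Without lateral replicate 3, the lowest library, it was -0.31. Grm7, a Gi-coupled presynaptic receptor, was at 9.98, 34.4, 22.6, 21.2 and 29.9 TPM in lateral and 53.1, 60.7, 18.1, 45.3 and 33.3 TPM in medial replicates. Here 3 medial libraries were above every lateral one and medial replicate 3 was below 4 of the lateral libraries (log2 difference -0.80, 95% interval -1.57 to -0.03, limma adjusted p = 0.304). Gm20387 overlaps Grm7 on the opposite strand.

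Grm3, a Gi-coupled receptor of astrocytes and neurons, was at 67.4 ± 13.0 and 73.7 ± 13.7 TPM (SD, n = 5 each; log2 difference -0.13, limma adjusted p = 0.777), with the sign turned by median-ratio scaling (0.080). Grm4, the presynaptic receptor found on striatopallidal terminals, was at 15.1 ± 2.41 and 12.7 ± 2.17 TPM (0.24, limma adjusted p = 0.644). Its share of metabotropic receptor transcripts was 9.52% ± 1.74 in lateral and 6.32% ± 1.39 in medial samples, with overlapping ranges (exact permutation p = 0.0238, adjusted p = 0.107 over the 27 shares). Grm8 was at most 0.688 TPM in any library and was not tested. Grip1, a PDZ scaffold that binds AMPA receptor tails, was at 4.71 ± 1.19 and 5.23 ± 2.06 TPM (SD, n = 5 each; -0.09, limma adjusted p = 0.922), with the sign turned by both median-ratio scaling (0.087) and quantile normalization (0.20).

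Variation within a region set how small a difference these libraries could resolve. The SD within regions on the log2(TPM + 1) scale was 0.17 for Gria1, 0.18 for Gria2 and 0.21 for Cnih2, and at the other end 0.86 for Cacng8, 0.98 for Grin3a and 1.3 for Cnih3. Ordered by level over all 10 libraries, Cnih2, Gria1 and Gria2 came first, the former pair with overlapping levels, and Grm3, Grm5, Neto1 and Cacng3 followed with means that differed by less than their spread. Summed over the 33 genes, the level was 1059 ± 170 TPM in lateral and 1101 ± 92.5 TPM in medial samples (SD, n = 5 each), with overlapping ranges of 884 to 1339 TPM and 963 to 1200 TPM. By whole gene spans, introns included, other genes of the table overlapped 12 of the 33 on the opposite strand and 10 on the same strand. Cacng5, Gria2, Gria3 and Shisa9 overlapped none.

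Genes that work with these receptors were taken in 4 lists, and 1 of the 58 tested passed, on the medial side, where 1.1% of all genes did. Among 16 other AMPA receptor partners and assembly factors, 8 were higher in each region (median 0.14) and Olfm3, which encodes the secreted AMPA receptor-associated protein olfactomedin 3, was higher in the medial shell. It was at 11.3, 10.2, 12.3, 13.5 and 18.6 TPM in lateral and 25.1, 20.6, 37.9, 38.0 and 67.2 TPM in medial replicates, with no overlap (log2 difference -1.36, standard error 0.29, limma adjusted p = 0.0368). The call was lost when any lateral library but replicate 5, or any of medial replicates 3 to 5, was left out (adjusted p up to 0.0932), and with median-ratio scaling (0.0611), quantile normalization (0.0578), no filter on low values (0.0528) and no mean-variance trend (0.076). The neuronal pentraxin genes, whose secreted products cluster AMPA receptors, stood higher in lateral means without passing. Nptx2 was at 7.41 ± 2.67 against 3.11 ± 5.36 TPM (SD, n = 5 each), with medial replicate 1 the highest library at 12.6 TPM and 2 medial libraries listed at 0 (1.75, limma adjusted p = 0.208). Without that library it was 2.37 and passed (adjusted p = 0.0244). Nptx1 was at 7.98 ± 2.94 against 3.22 ± 2.73 TPM (1.36, limma adjusted p = 0.219). Abhd6, a lipase that lowers AMPA receptor delivery, had a log2 difference of -0.60 (limma adjusted p = 0.334).

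None of the 21 tested postsynaptic scaffold and kinase genes passed, with 11 higher in lateral and 10 in medial means and a median of 0.06. Dlg3 (SAP102) was at 16.4 to 19.3 TPM in lateral and 12.4 to 14.5 TPM in medial samples, with no overlap (log2 difference 0.41, limma adjusted p = 0.304). Homer1, which ties group I metabotropic receptors to the scaffold, and Dlgap3 had log2 differences of 0.60 and 0.59, and Lrrc7 one of -0.53 (limma adjusted p = 0.305, 0.378 and 0.41). Glutamate transport and metabolism genes were higher in medial means for 12 of 15 tested, with none passing, and their median of -0.11 was nearer to 0 than the -0.21 of all genes. Glud1, glutamate dehydrogenase, was at 61.1 ± 13.9 against 95.3 ± 21.2 TPM with no overlap (-0.64, limma adjusted p = 0.165), and the glial transporter gene Slc1a3 at 70.1 ± 19.9 against 105 ± 22.4 TPM (-0.59, limma adjusted p = 0.199; SD, n = 5 each). Got1 and Slc1a6 followed at -0.47 and -1.21 (limma adjusted p = 0.261 and 0.265). The summed astrocyte genes, which include no member of this list, were at 83.8 to 298 TPM in lateral and 196 to 274 TPM in medial samples. All lateral sums but that of replicate 1 lay below every medial sum, and the part of these cells was not tested. Of the 6 tested genes of D-serine and glycine supply, the co-agonists of NMDA receptors, 4 were higher in medial means (median -0.11) and none passed. The amino acid transporter genes Slc1a4 and Slc7a10 had log2 differences of -0.87 and -1.17, Phgdh, which starts serine synthesis, 0.69, and Srr, serine racemase, -0.20, or 0.0073 with median-ratio scaling (limma adjusted p = 0.154, 0.168, 0.257 and 0.706).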

How the data were processed

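Lateral and medial shell tissue (5 samples each) was profiled by Geo-seq, per the labels' protocols, a method that amplifies RNA from laser-captured pieces. The authors deposited TPM for 20483 genes, scaled to 1000000 in each. Per the submitters' processing notes, the tools were HISAT2 2.1.0 and fastp 0.20.0 with featureCounts 1.6.3 and StringTie 1.3.4, on GRCm38 (mm10), with no roles stated. Annotation and strand use are not given in the sources. TPM keeps no depth, so no counting interval is given. Coordinates and coding sequences come from GENCODE M21.

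Genes with at least 1 TPM in at least 5 of 10 samples (15596) entered limma 3.58.1 (R 4.3.3), with a mean-variance trend, on log2(TPM + 1). P-values were Benjamini-Hochberg adjusted at 0.05, and differences are lateral minus medial on that scale, which understates changes of low genes. The 27 subunit shares had exact permutation tests. The scripts were tested on simulated data. The receptor genes and lists were chosen with earlier results of these data known. All 36 receptor genes are named, with up to 4 genes of smallest p per pathway list and the 2 most abundant per marker list. C1qa, Tmem119 and Sox11 are also named because they passed, and C1qa and Sox11 fall under the marker rule as well. An item of the marker lists is not reported here. Alternatives changed the pseudocount, filter, scaling, variance model, weights, replicate block and libraries.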

Additional observations from a re-analysis of the deposited data

Results flagged for a closer look

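Among 120 groups of 5 libraries (66 of TPM and 54 of shares), 6 held a library whose gap to its nearest neighbour was more than 0.71 of the range of the group. Chance gives about 1 in 20, so this number is about what chance alone would give. Medial replicate 3 was the library in 3 of them. There Grin1 was at 12.5 TPM against 21.3 to 23.4 TPM in the other medial libraries, Neto2 at 22.7 TPM against 36.4 to 40.5 TPM, and Grm5 at 81.3 TPM against 71.2 to 73.5 TPM. Medial replicate 5 had 22.8 TPM of Cnih3 against 0.401 to 4.45 TPM in the other medial libraries, and also the lowest medial share of Cnih2 in the cornichon pair, 85.3% against 95.9% to 99.7%. That share falls as Cnih3 rises, so these flags are not separate. Lateral replicate 4 had 123 TPM of Cnih2 against 147 to 155 TPM in the other lateral libraries. None of these genes passed the comparison of the regions.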

How the results depend on the processing

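The receptor genes were refitted in 22 alternatives. Of 677 recomputed differences, 643 kept their direction and side of the threshold, 22 turned sign, 10 lost and 2 gained a call. Genes higher in medial numbered 107 with a pseudocount of 0.1 TPM, 82 with median-ratio scaling, 100 with quantile normalization, 111 without a mean-variance trend, 38 without lateral replicate 5 and medial replicate 2 together, and 56 to 188 without single libraries. Genes higher in lateral numbered 34 without the trend, 15 without both libraries and 23 to 69 without single libraries. Receptor genes passing in lateral were 0 with a pseudocount of 0.1 TPM, with no filter, with a filter of 5 TPM, where Cacng5 was not tested, and without both libraries, and 0 to 2 without single libraries, while those in medial were 0 to 1.

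The labels do not say whether samples of equal number share an animal, so they were not treated as pairs. Their deviations from the group means were not correlated across genes (between -0.05 and 0.04), which cannot show that they come from different animals. With a replicate block, 19 genes were higher in lateral, 45 in medial and 0 receptor genes passed in lateral, where Cacng5 had an adjusted p of 0.09. For the shares, an exact sign-flip test over the same numbers cannot go below p = 0.0625, so it bears on no call.

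Signs turned for 9 receptor genes, none of which had passed. With median-ratio scaling Gria1 was 0.042, Grm3 0.080, Cacng7 0.015, Grip1 0.087 and Srr 0.0073. With quantile normalization Grik4 was 0.060, Cacng7 0.085 and Grip1 0.20. Without both libraries Grip1 was 0.14 and the share of Grik1 -0.86 points. The share of Grm8 was 0.045 points with 1 TPM added and 0.089 as a log2 ratio, and that of Grik4 0.060 as a log2 ratio. Without single libraries the differences ran from -0.13 to 0.20 for Grin2b, -0.11 to 0.19 for Grin2c, -0.023 to 0.59 for Grin3a, -0.68 to 0.015 for Grik4, -0.34 to 0.039 for Cacng7, -0.064 to 0.076 for Neto1 and -0.25 to 0.076 for Grip1. The shares ran from -0.996 to 1.11 points for Grin3a, -0.55 to 0.61 for Grik1 and -2.90 to 0.52 for Grik4. No share passed in the alternatives that could reach the threshold. There too a share could pass only with several others near the smallest p, so this count says little about the shares. Of 417 refits of 19 list genes, 45 lost a call, all of them of Olfm3, C1qa, Tmem119 and Sox11, and 1 gained one. Depth is unknown, so low levels such as those of Cacng5 in medial libraries can be given no counting error.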
